A study of Mus musculus with 6 samples.

Results

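Interferon-stimulated genes are the genes that cells switch on after interferon binds its receptors. Of 36 such genes named for this description, 34 were matched to a probe on the arrays through the RefSeq accession of the probe, and 1 probe stood for each gene, the one with the highest mean over the 6 arrays. All 34 were among the 23266 genes tested. The members without a match were Mx1 and Mx2, dynamin-like GTPases, which the gene table lists as transcribed pseudogenes. They were not analysed here. The arrays measured total RNA of bone marrow cells that the labels call mesenchymal stem cells, sorted from C57BL/6 mice. The young group is 3 samples from mice aged 3 months and the old group is 3 samples from mice aged 24 months. No treatment or genetic change is given for either group. The labels name neither the sorting markers nor the number of animals behind a sample, so a p-value here reflects only how far these 6 samples spread, which may be technical.

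Type I interferons act through Ifnar1 and Ifnar2 and the kinases Jak1 and Tyk2, and a complex that holds Stat2 and Irf9 then binds the interferon-stimulated response element in promoters. Interferon gamma acts through its own receptor, Ifngr1 and Ifngr2, and its signal reaches promoters at the gamma-activated site. The products block steps of viral replication, label proteins with Isg15 or prepare peptides for display on MHC class I. In the marrow, interferon signalling is known to act on blood stem cells and on the stroma around them.

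Letters of the response element occurred in many of the promoters. RefSeq promoter windows (build GRCm38.p6, from 250 bases before to 50 after the gene start) were available for 26 of the 34 genes, in 30 windows. The 8 genes without one were Dhx58, Iigp1, Oas2, Parp14, Parp9, Rtp4, Usp18 and Zbp1. The motif GAAA, any 2 bases, GAAA, searched on both strands, lay in 14 of the 30 windows (46.7%), each of a different gene, against 3.44% of all 32851 windows. The gamma-activated site TTCNNNGAA, which reads the same on both strands, lay in 7 windows (23.3%) against 8.30% of all windows, and in 2 of them it overlapped a match of the first motif. A match is a string of letters and not a measured binding site. Upstream stretches of 6 genes are printed with the matches of the first motif in capitals, because the results turn on the Ifit and Oas families and Isg15, and because Gbp2 and Igtp stand for the GTPases induced by interferon gamma. TTTC, any 2 bases, TTTC is the first motif on the other strand, and each stretch runs 5′ to 3′ along the gene's strand. The stretches lie at chr19:34583353-34583436 (+) for Ifit3, chr19:34640765-34640833 (+) for Ifit1, chr4:156200855-156200916 (-) for Isg15, chr5:120777705-120777754 (-) for Oas3, chr3:142620584-142620633 (+) for Gbp2 and chr11:58199502-58199551 (+) for Igtp.
Ifit3: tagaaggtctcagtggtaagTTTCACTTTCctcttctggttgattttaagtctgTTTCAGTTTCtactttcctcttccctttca
Ifit1: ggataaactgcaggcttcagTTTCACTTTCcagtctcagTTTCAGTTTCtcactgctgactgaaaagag
Isg15: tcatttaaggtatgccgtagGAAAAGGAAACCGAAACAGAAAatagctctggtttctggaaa
Oas3: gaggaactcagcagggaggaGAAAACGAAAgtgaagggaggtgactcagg
Gbp2: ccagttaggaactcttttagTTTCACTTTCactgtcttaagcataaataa
Igtp: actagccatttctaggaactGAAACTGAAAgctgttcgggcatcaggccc
Ifit3 and Ifit1 each carried 2 separate matches and Isg15 a run of 3 overlapping ones. The Igtp stretch also holds a match of the gamma-activated site, in lower case, whose first base is at -45 from the gene start.

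The comparison of the ages asks whether these genes differ between the sorted cells of old and young mice. Of the 34 genes, 2 fell in old samples, Ifit3 and Oas2, and none rose (limma with Benjamini-Hochberg adjustment over all tested genes, threshold 0.05). That is 5.88% of them called lower, beside 4.01% of all tested genes called lower, 4.38% called higher and 8.39% called in either direction, so the share was near the background. At an unadjusted limma p under 0.05 there were 5 lower and 1 higher, 6 in all, against 28.9% of all tested genes in either direction. The median difference, old minus young on the log2 scale, was -0.18 for the 34 genes and 0.08 for all tested genes. Over 5 other scalings or background corrections the gap between these medians ran from -0.27 to -0.22, and it was -0.27 with the 75th percentile. For 27 of the 34 genes the 95% interval of the difference lay within 1 log2 unit on either side of 0, that is, it excluded a 2-fold change, and for 13 it lay within 0.5. Besides Ifit3 and Oas2, the interval reached past 1 log2 unit for 5 genes (Irf1, Ifit1, Oas3, Oasl2 and Ifi44), so a 2-fold fall of these was not excluded.

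**Figure D1:**
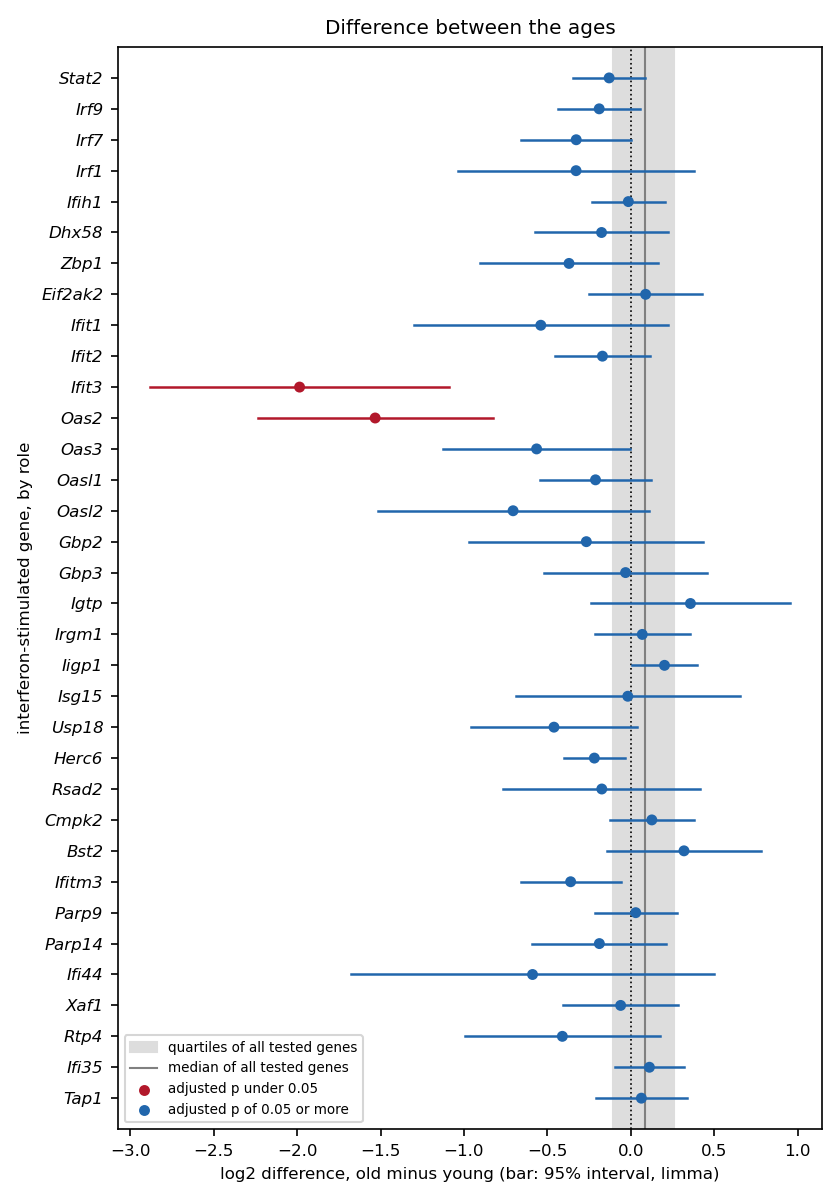
Difference between old and young samples (horizontal axis, log2) for the 34 interferon-stimulated genes by role, with 95% intervals from limma (3 against 3 arrays). Ifit3 and Oas2, in red, lie at -1.99 and -1.53 with intervals below 0. The grey band spans the quartiles of all tested genes, -0.11 to 0.26, against -0.37 to 0.02 for the 34 genes. Of the 34 genes, 25 (73.5%) lie below 0, against 37.4% of all tested genes. Under the 5 other scalings or background corrections these were 25 to 28 genes and 31.4% to 51.4%.

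The arrays differed in ways that touch every value. The 75th percentile of the signal was 314.8 to 393.5 on young and 229.4 to 318.8 on old arrays, and values here are log2 signals relative to it. All 6 arrays shared 1 slide, young and old arrays each filling a row of it, and slide row and age therefore cannot be told apart. Over all tested genes 1020 were called higher and 933 lower (52.2% of the calls higher), a share of 42.0% with cyclic loess, 39.0% with the deposited table, 68.5% with normexp background correction and 63.2% when probes had to be well above background on all 6 arrays. Of 24 mesenchymal markers, 9 were well above background on all 6 arrays, among them Mcam and Eng, and 7 on none (Pdgfra, Pdgfrb, Prrx1, Twist1, Foxc1, Grem1 and Gli1). Of the 13 tested, Lepr rose by 1.03 and 4 fell, including Sparc (by 4.29) and Col1a1, which was well above background on every young and no old array. All 21 neutrophil and all 16 erythroid markers were well above background on all 6 arrays. Genes shared by leukocytes fell in 10 of 19 tested members (median -0.89), monocyte and macrophage genes in 11 of 17 (-1.89) and neutrophil genes in 9 of 21 (-1.21). B cell genes fell in 8 of 19 (-2.31) and NK cell genes in 3 of 10 (-1.27), against 4.01% of all tested genes. Of 15 T cell genes 1 fell and 2 rose (-0.30). Of 16 erythroid genes none passed (-0.01), and of 10 endothelial genes 1 rose and none fell (0.20). Among the falls, Mrc1, Fcgr1, Klrb1c, Klre1 and Tcf7 were well above background on no old array. They entered the test through the young arrays alone. In bulk samples fewer cells of a type and less RNA per cell cannot be told apart.

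Ifit proteins bind viral RNA that lacks the host's cap marks. Ifit3 (NM_010501) read -2.02, -2.82 and -1.55 on the young arrays (replicates 1, 2 and 3, the order used throughout) and -4.18, -4.52 and -3.65 on the old arrays. The age groups did not overlap. Ifit3 fell by 1.99 ± 0.37 log2 units (difference ± SE throughout, n = 3 and 3), or 3.96-fold, with a limma adjusted p of 0.0333. Its probe was well above background on all 3 young arrays but on 1 of the 3 old arrays (replicate 3), so the old values are close to the limit of measurement. The other old arrays were then held at no less than the dimmest signal that counted as well above background there. The difference became -1.84, or 3.58-fold, a calculation chosen after seeing the data. Only old replicate 2 changed, because old replicate 1, at -4.18, already lay above that signal (-4.67). The calculation is therefore not a strict bound. With normexp correction, which adds an offset that shrinks dim signals, the difference was -0.54 and the call ended.

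The neighbouring family members, which lie with Ifit3 on chromosome 19, did not pass. Ifit1 (NM_008331) was -2.39, -3.22 and -2.27 in young and -2.89, -2.99 and -3.63 in old replicates, so young replicate 2 lay within the old range. Its difference was -0.54 ± 0.31 (limma adjusted p = 0.307), with a 95% interval from -1.30 to 0.22. Ifit2 (NM_008332), which promotes cell death in infected cells, differed by -0.17 ± 0.12 (limma adjusted p = 0.387), with an interval from -0.46 to 0.12 that excluded a fall of the size of Ifit3's.

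Oas enzymes make 2-5-linked oligoadenylate when they meet double-stranded RNA. Oas2 (NM_145227) read 0.66, 0.08 and 0.77 on the young and -0.59, -0.96 and -1.54 on the old arrays. All old arrays lay below all young arrays, and all 6 were well above background. Oas2 fell by 1.53 ± 0.29 log2 units, or 2.89-fold, with a limma adjusted p of 0.0345. The call held in all 5 scalings and background corrections tried, with differences from -1.61 to -1.18.

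Oas3 (NM_145226) was -0.55, -0.76 and -0.11 in young and -0.76, -0.95 and -1.41 in old replicates. The lowest young and highest old array were level, and the difference of -0.56 ± 0.23 did not pass (limma adjusted p = 0.171). Oasl2 (NM_011854), an Oas-like protein with ubiquitin-like domains, was 0.95, -0.17 and 0.76 in young and -0.06, 0.10 and -0.61 in old replicates, and young replicate 2 again lay among the old arrays. Its difference was -0.71 ± 0.33 (limma adjusted p = 0.223). Oasl1, which has lost the enzyme activity and represses translation of Irf7, differed by -0.21 ± 0.14 (limma adjusted p = 0.359).

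**Figure D2:**
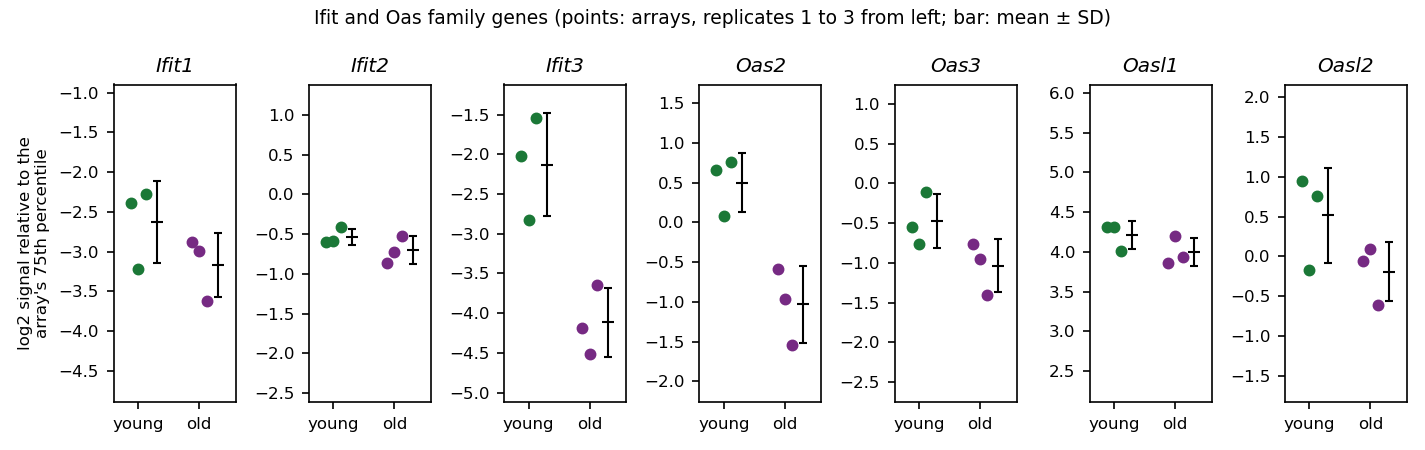
Log2 signal after subtraction of each array's 75th percentile (vertical axis, each panel spanning 4 units) for Ifit and Oas family genes, with 1 point per array and the mean ± SD of 3 arrays beside them. Ifit3 and Oas2 separate young from old arrays, and in Ifit1, Oas3 and Oasl2 the groups overlap or meet.

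Leaving out single arrays ended both calls in most cases. Over the 6 fits that each left out 1 array, Ifit3 differed by -2.33 to -1.69 and passed in none, and Oas2 differed by -1.75 to -1.28 and passed only without old replicate 1. Both kept the sign in every fit, and no gene at all passed without old replicate 3, where limma gave 5128 genes at an unadjusted p under 0.05. Beside these falls, the signals of the 19 leukocyte markers (in multiples of the 75th percentile) summed to 199 to 286 on young and 150 to 155 on old arrays. The 19 monocyte and macrophage markers on the array summed to 26.0 to 55.1 on young and 10.8 to 15.8 on old arrays. Much of these monocyte sums came from Lyz2 and Csf1r, neither of which passed (limma adjusted p = 0.0556 and 0.277). No marker of either list was below background on every array. Of 11 plasmacytoid dendritic cell markers tested, 5 fell, with a median of -0.99 and sums of 312 to 375 on young and 310 to 357 on old arrays. Most of these sums came from 1 marker, Siglech, which averaged 8.13 in young and 8.19 in old samples, so they say little about the other markers. The 11 differences ran from -2.35 (Spib) to 0.67 (Runx2), with 8 of them below 0. Pacsin1 differed by 0.49, and neither Pacsin1 nor Runx2 passed. Plasmacytoid dendritic cells are the cell type known for the highest interferon output. The part of these cell types in the falls of Ifit3 and Oas2 was not tested.

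The transcription factors that drive the response did not pass. Irf9 (NM_001159417), the DNA-binding part of the complex with Stat2, was 3.90, 3.69 and 3.61 in young and 3.51, 3.59 and 3.53 in old replicates, and Stat2 (NM_019963) differed by -0.13 ± 0.09 (limma adjusted p = 0.387). For Irf9 the groups did not overlap, but the gap was narrow and the difference was -0.19 ± 0.10 (limma adjusted p = 0.273). Irf7 (NM_016850), which drives the later wave of interferon alpha genes, was tight in young samples at 0.27, 0.22 and 0.27, and was -0.16, 0.20 and -0.26 in old ones. Old replicate 2 was almost at the young level, and the difference of -0.33 ± 0.14 did not pass (limma adjusted p = 0.176). Irf1 (NM_008390), a factor downstream of interferon gamma, varied more within the ages, at 1.88, 1.18 and 2.08 in young and 1.47, 1.72 and 0.97 in old replicates.

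Across the 34 genes the old arrays all lay below the young arrays in 6 genes (Irf9, Irf7, Ifit3, Oas2, Herc6 and Ifitm3), or 17.6%, against 12.2% of all tested genes. In 1 gene, Iigp1, they all lay above, against 24.8% of all tested genes. Ifitm3 (NM_025378), a membrane protein that stops virus entry at the endosome, was 3.46, 3.26 and 3.61 in young and 3.17, 3.14 and 2.94 in old replicates. Its difference of -0.36 ± 0.12 did not pass (limma adjusted p = 0.121) except with normexp correction, where it was -0.40 at an adjusted p of 0.0467 (0.0467 to 0.277 over 15 alternatives). The other membrane restriction factor, Bst2 (tetherin, which holds budding virions at the cell surface), pointed the other way, with a difference of 0.32 ± 0.19 (limma adjusted p = 0.320).

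Among genes of Isg15 conjugation, Isg15 (NM_015783), the ubiquitin-like protein itself, was 3.31, 2.36 and 2.99 in young and 2.77, 3.22 and 2.62 in old replicates. Both ages covered nearly the same range, and the difference was -0.02 ± 0.28 (limma adjusted p = 0.974; 95% interval from -0.69 to 0.65). A further Isg15 probe, also well above background on all 6 arrays, read -0.58, -1.37 and -0.79 in young and -1.25, -0.66 and -1.47 in old replicates, which is the same order of arrays within each age. Usp18, the protease that removes Isg15 and dampens Ifnar2 signalling, differed by -0.46 ± 0.21 (limma adjusted p = 0.200). Herc6 (NM_025992), the main ligase for Isg15 in mice, had the tightest replicates of the 34 genes, at -0.56, -0.53 and -0.55 in young and -0.71, -0.79 and -0.79 in old samples. Its groups did not overlap, yet the size was 1.16-fold and the call failed (-0.22 ± 0.07, limma adjusted p = 0.122). A further Herc6 probe, also well above background on all 6 arrays, read -0.93, -1.01 and -0.90 in young and -1.08, -1.25 and -0.92 in old replicates. There the groups overlapped and the difference was -0.14 (limma adjusted p = 0.470), so the separation rests on the chosen probe.

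Sensors of foreign RNA and DNA, and Pkr, did not pass. Ifih1 (Mda5), a sensor of long double-stranded RNA, differed by -0.01 ± 0.09 with a 95% interval from -0.23 to 0.21. Its regulator Dhx58 (Lgp2) differed by -0.18 ± 0.16. Zbp1, a sensor of left-handed nucleic acid that can start necroptosis, differed by -0.37 ± 0.22, and Eif2ak2 (Pkr), the kinase that stops translation, by 0.09 ± 0.14. Of the 4, limma had 0 at an unadjusted p under 0.05.

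The GTPases known for induction by interferon gamma had a median difference of 0.07. Igtp was 2.87, 1.996 and 2.41 in young and 2.80, 3.03 and 2.52 in old replicates, and the difference of 0.36 ± 0.25 did not pass (limma adjusted p = 0.382). Iigp1 was 0.23, 0.11 and 0.13 in young and 0.345, 0.415 and 0.319 in old replicates. That is the 1 gene whose old arrays all lay above the young, by 0.20 ± 0.08 (limma adjusted p = 0.165). Irgm1, which governs the other GTPases of its family, differed by 0.07 ± 0.12, Gbp3 by -0.03 ± 0.20 and Gbp2 by -0.27 ± 0.29. Of the 5, limma called none, with 1 (Iigp1) at an unadjusted p under 0.05.

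The remaining members covered several roles. Rsad2 (viperin, which makes a chain-terminating nucleotide) differed by -0.17 ± 0.24, and Cmpk2, the nucleotide kinase whose gene neighbours it, by 0.13 ± 0.10. Parp9 and Parp14, ADP-ribosyltransferases, differed by 0.03 ± 0.10 and -0.19 ± 0.17. Tap1, which moves peptides into the endoplasmic reticulum, differed by 0.06 ± 0.11, Ifi35 by 0.11 ± 0.09, Xaf1, an antagonist of the apoptosis inhibitor Xiap, by -0.06 ± 0.14 and Rtp4 by -0.41 ± 0.24. Ifi44 had the widest spread among old arrays, at -2.09, -2.16 and -3.62 against -1.61, -2.40 and -2.09 in young ones, so its difference of -0.59 ± 0.45 rested on old replicate 3. Without that array it was -0.09.

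**Figure D3:**
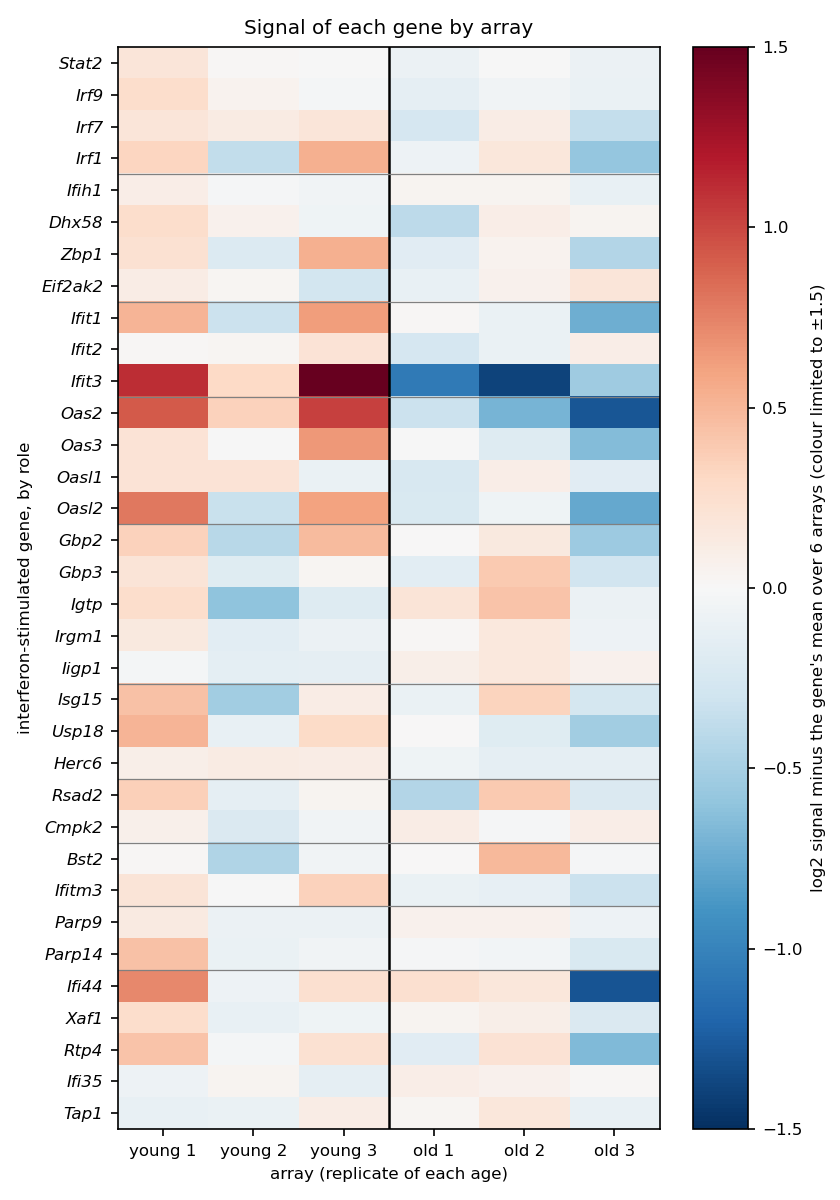
Log2 signal of each gene on each array minus the mean of that gene over the 6 arrays (colour, limited to 1.5 units either way), with genes grouped by role and arrays by age. Ifit3 and Oas2 differ between the ages, whereas many genes are low on young replicate 2 and old replicate 3.

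Many of these genes shared an order of arrays within an age. Within the young group, replicate 2 read lowest in 24 of the 34 genes, against 30.6% of all tested genes. Within the old group, replicate 3 read lowest in 26 of the 34, against 32.6% of all tested genes. Under the 5 other scalings and background corrections these counts were 22 to 26 and 25 to 26. At the other end, young replicate 1 was highest of its age in 20 of the 34 genes, against 37.6% of all tested genes. Old replicate 2 was highest in 21, against 31.9%. The spread within an age was also wider, with a median within-group SD of 0.225 for the 34 genes and 0.162 for all tested genes. Igtp, Irgm1, Isg15 and Bst2 were lowest of all 6 arrays on young replicate 2, while Ifit1, Oas2, Oasl2, Ifi44 and Rtp4 were lowest on old replicate 3.

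The array order of marker lists was compared as a description. The median over the 34 genes of the log2 signal minus the mean over 6 arrays was 0.22, -0.09 and 0.07 for the young and -0.07, 0.06 and -0.22 for the old arrays. For leukocyte markers it was 0.11, 0.30 and 0.80 in young and -0.39, -0.31 and -0.51 in old replicates. Monocyte and macrophage markers had 0.50, 0.64 and 1.64 in young and -0.44, -0.97 and -1.16 in old replicates. Both marker lists were highest on young replicate 3 and lowest on old replicate 3. The interferon-stimulated genes were also lowest on old replicate 3, but among young arrays they were highest on replicate 1 and lowest on replicate 2. The genes of antigen presentation, also raised by interferon, had 0.13, -0.17 and -0.04 in young and 0.06, 0.15 and -0.03 in old replicates. Young replicate 2 was again the lowest of its age. These medians describe single arrays, and the part of the marker cell types in the order was not tested.

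**Figure D4:**
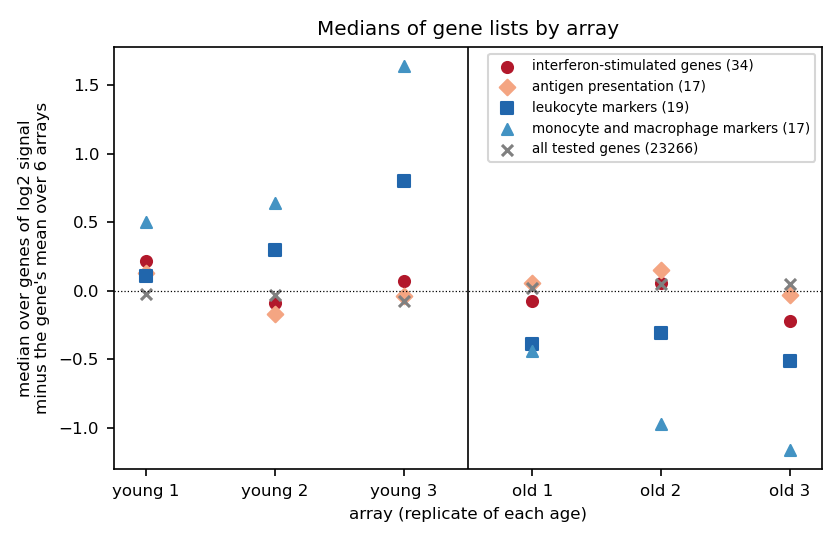
Median over each gene list (vertical axis) of the log2 signal minus the gene's mean over 6 arrays, for each array. Interferon-stimulated genes range from -0.22 to 0.22, with young replicate 2 below both other young arrays, while leukocyte and monocyte markers are highest on young replicate 3 and lower on all old arrays.

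Of 134 other genes of interferon production and signalling that were tested, 13 fell and 1 rose in old samples. That is 9.70% lower, beside 4.01% of all tested genes, and the median of the 134 was -0.02. Of 16 ligand genes on the array, 11 were tested and 9 were well above background on all 6 arrays, most of them interferon alpha genes, which are near-identical copies whose probes may not tell them apart. Ifnb1 was well above background on no array, and of the 11 ligand genes tested none passed with limma, with 1 (Ifng) lower at an unadjusted p under 0.05. Ifng (NM_008337), the interferon of T and NK cells, was -3.86, -3.87 and -3.23 in young replicates and well above background on no old array. Ifng therefore entered the test through the young arrays alone. A floored difference of Ifng was 1.62-fold, lower in old samples. The limma adjusted p, from the measured signals, was 0.0521, so Ifng did not pass. For the floored difference, each old array was given the Ifng signal or a floor, whichever was larger. The floor was the dimmest signal that counted as well above background on that array. On old replicate 1 the Ifng signal of -4.61 lay above the floor of -4.67, so 1.62-fold is not a strict lower bound. With normexp correction, which shrinks dim signals, the Ifng difference was -0.0023 (limma adjusted p = 0.992), so the fall was not seen there. Under the other scalings and in the deposited table the difference ran from -1.83 to -1.46.

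The receptors of type I interferon were measured on all arrays and did not pass. Ifnar1 was 1.26 in young and 0.97 in old samples, a difference of -0.29 ± 0.12 (limma adjusted p = 0.158). Ifnar2 differed by 0.07 ± 0.09. Of the receptors for interferon gamma, Ifngr2 (NM_008338), the signalling chain, was 0.53, 0.54 and 0.48 in young and -0.01, 0.08 and 0.20 in old replicates, and fell by 0.43 ± 0.09 (limma adjusted p = 0.0415). The binding chain Ifngr1 differed in the other direction, by 0.43 ± 0.17, and did not pass (limma adjusted p = 0.158). Ifnlr1 (NM_174851), a receptor of interferon lambda, fell by 1.37 ± 0.20 (limma adjusted p = 0.0254).

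Of the kinases and Stats, Jak1 differed by 0.02 ± 0.08 and Tyk2 by -0.51 ± 0.15 (limma adjusted p = 0.0946). Stat4, which transmits interleukin 12 signals in T and NK cells, fell by 1.61 ± 0.34 (limma adjusted p = 0.0421). Irf3, the first responder among the Irfs, differed by 0.11 ± 0.09. The falls among Irfs were those of Irf8 (NM_008320), a factor of monocytes, dendritic cells and B cells, at 1.61, 1.72 and 2.56 in young and 0.02, -0.61 and -0.58 in old replicates, and of Irf5 (NM_012057), a factor of myeloid and B cells. Irf8 fell by 2.35 ± 0.30 and Irf5 by 2.10 ± 0.26 (limma adjusted p = 0.0219 for both). Of the genes that sense nucleic acids or start interferon production, Sting1 (NM_028261) fell by 1.61 ± 0.22 (limma adjusted p = 0.0229). Ifi204, a myeloid member of the family of interferon-inducible DNA-binding proteins, fell by 1.80 ± 0.28 (limma adjusted p = 0.0270). Cgas, which makes the messenger for Sting1, differed by 0.14 ± 0.11 and Mavs by -0.14 ± 0.13.

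In the longer list of other antiviral interferon-stimulated genes, 6 of 61 tested fell (9.84%, against 4.01% of all tested genes) and limma called none higher. At an unadjusted limma p under 0.05 there were 18 lower and 1 higher, against 28.9% of all tested genes in either direction. Ifi27l2a (NM_029803) was 2.90, 2.41 and 3.56 in young and 1.14, 0.49 and 0.50 in old replicates, and fell by 2.25 ± 0.33 (limma adjusted p = 0.0254). Gbp4, counted among these 6, was well above background on all young and no old arrays, so it entered the test through the young arrays alone. Its floored difference, set as for Ifng, was 3.01-fold, lower in old samples. The limma adjusted p, from the measured signals, was 0.0456. On old replicate 1 its signal of -4.32 also lay above the floor, so 3.01-fold is not a strict lower bound. Gbp4 was not tested when probes had to be well above background on all 6 arrays. The Gbp4 call ended with quantile normalization, cyclic loess, the deposited table and normexp (limma adjusted p from 0.0555 to 0.0989), and with normexp the difference was -0.43. Slfn2, which keeps T cells and monocytes quiescent, fell by 1.55 ± 0.33. Smaller falls were those of Tdrd7 (0.51 ± 0.10), the helicase-family coactivator Helz2 (0.50 ± 0.10) and Trim34a (0.41 ± 0.08), with limma adjusted p between 0.0376 and 0.0448 for these 4 genes. Trim34a has 2 probes, and as their mean it differed by -0.17 (limma adjusted p = 0.351), so its call rests on the chosen probe. With cyclic loess the calls of Slfn2 and Stat4 ended (limma adjusted p = 0.0521 and 0.0513). In the list of antigen presentation, Erap1 (NM_030711), which trims peptides for MHC class I, was the 1 gene of 17 that passed. It was -1.49, -2.07 and -1.73 in young and -0.97, -0.87 and -0.79 in old replicates, and rose by 0.89 ± 0.16 (limma adjusted p = 0.0313).

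Of these 14 calls, 8 or fewer were left whenever 1 array was left out, and none when the array left out was young replicate 2 (43 at an unadjusted limma p under 0.05), old replicate 2 (35) or old replicate 3 (31). The leukocyte and monocyte marker sums given for Ifit3 and Oas2 moved in the same samples as Irf8, Irf5, Sting1, Ifi204 and Slfn2, and their part in these falls was not tested.

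**Figure D5:**
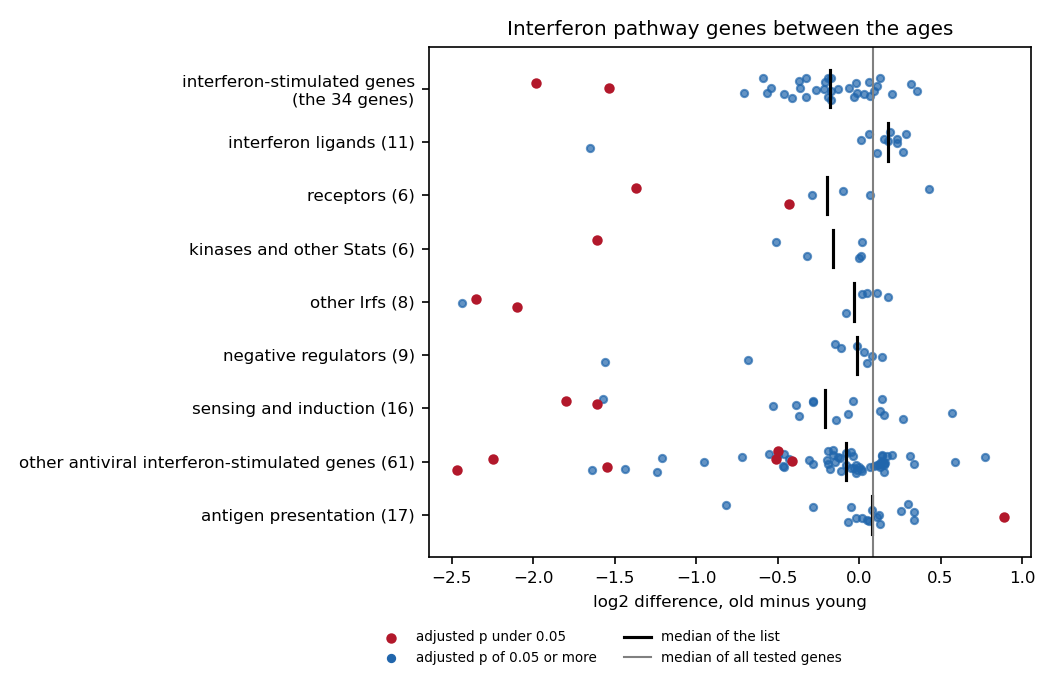
Log2 difference between old and young samples (horizontal axis) for the 34 interferon-stimulated genes and for 8 lists of other interferon pathway genes, with 1 point per gene, red where the limma adjusted p was under 0.05. Medians of the lists lie between -0.21 and 0.18, and the red points below -1 include Irf8, Irf5, Ifi27l2a, Ifi204 and Sting1.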

How the data were processed

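Total RNA was measured on 6 Agilent 1-colour arrays. The spot intensities were deposited as the authors' scanner files, which per the file headers were written by Feature Extraction 10.7.3.1 (10.5.1.1 per the submitters' processing notes), background-subtracted and detrended within each array and not scaled between arrays. A second deposited file gives log2 values of 52095 among the 55681 probes. How these were scaled: not given in the sources used here. They followed the log2 intensity of each array at r = 0.9986 to 0.9992 across probes, with column medians from 4.87 to 4.95.

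Control spots and outlier spots were left out, repeated spots averaged and each array's 75th percentile subtracted on the log2 scale. Of the probes, 47.4% matched a symbol by accession in a RefSeq table of GRCm38.p6, whose coordinates were printed only for its own promoter sequences. A gene was tested if 3 or more arrays had its chosen probe well above background. The test was limma 3.58.1 (R 4.3.3) without covariates. Of the 34 genes, 33 passed on all 6 arrays and Ifit3 on 4. Scripts used Python 3.11.15 and pandas 2.3.3, and the fit was tested on simulated data. Members and lists were chosen with earlier results of these data known. The text names each member, each pathway gene that passed and a fixed set of core pathway genes whatever their result, of which 1 is not reported here. Cgas and Mavs were named after their values were seen. Normexp used median spot signals, since the files hold no mean signal. Alternatives were other scalings, normexp, the deposited table, other dim-probe filters, the mean of probes, the replicate block and leaving out each array. Counts of array order under other scalings were added after seeing the data. Replicate numbers did not pair the samples: same-numbered deviations from the group means correlated at -0.03, 0.02 and -0.01.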

Additional observations from a re-analysis of the deposited data

How the results depend on the processing

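The 3 arrays per age and the dim signal of some probes limit precision, and single calls were fragile. With the replicate block, none of the 23266 genes passed (5683 at an unadjusted p under 0.05), so 0 of the 34 interferon-stimulated and 0 of the other pathway genes did, and the same held without the filter on dim probes (0 passed, 11933 unadjusted). The numbers do not pair the samples. With probes required on all 6 arrays, 1 of the 34 genes passed, since Ifit3 was not tested. With normexp correction 3360 genes passed, 24 of them other pathway genes against 14, and Ifitm3 took the place of Ifit3. Leaving out 1 array gave 0 to 1262 genes against 1953, 0 to 1 of the 34 and 0 to 9 pathway genes. The median of the 34 was then -0.22 to -0.10, within the spread between arrays. Among values of single members under an alternative, 468 kept the sign and side of the threshold, 16 lost and 1 gained a call, and 24 changed sign. Signs changed for Parp9 (-0.0055 with quantile normalization, -0.044 with cyclic loess, -0.05 with normexp, -0.018 in the deposited table), Tap1 (-0.0053 with cyclic loess, -0.0034 in the deposited table), Irgm1 (-0.016 with cyclic loess) and Ifih1 (0.10 as a mean of probes). Among other pathway genes they did for Jak1 (-0.057 with quantile normalization, -0.083 with cyclic loess, -0.047 with normexp, -0.057 in the deposited table), Ifnar2 (-0.0049) and Irf3 (-0.0046) with cyclic loess, and Ifnar1 (0.063 as a mean of probes). Without 1 array the ranges were -0.043 to 0.037 for Ifih1, -0.029 to 0.17 for Eif2ak2, -0.23 to 0.10 for Gbp3, -0.28 to 0.20 for Isg15, -0.41 to 0.0017 for Rsad2, -0.0089 to 0.10 for Parp9, -0.13 to 0.058 for Xaf1, -0.0054 to 0.14 for Tap1 and -0.0083 to 0.066 for Jak1. The cause of these changes was not tested.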
